A study of Mus musculus with 2 samples.

Results

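The 6 microRNA genes described here form 3 bicistrons, loci in which a gene of the miR-1 or miR-206 kind and a gene of the miR-133 kind lie close together on 1 strand. They are Mir206 with Mir133b, Mir1a-1 with Mir133a-2, and Mir1a-2 with Mir133a-1. They were chosen by their symbols in the GENCODE vM21 annotation, and all 6 were found among the 2202 microRNA genes of each deposited table. The samples were gastrocnemius, the large calf muscle, of male B6CASTF1/J mice (offspring of C57BL/6 and CAST/EiJ parents) 14 days of age, with no treatment named. There was 1 group of 2 replicates with 1 small RNA library each, so no condition could be set against another. The labels give both samples the same donor identifier and mention several males, without saying whether animals were pooled, so every SD below is the spread between these 2 samples and may be partly technical.

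MicroRNAs are short RNAs cut from a hairpin precursor. They lower the output of messenger RNAs that pair with their seed, the stretch of bases 2 to 8. Genes of the miR-1, miR-206 and miR-133 families are the classical microRNAs of striated muscle, and are switched on by myogenic transcription factors such as MyoD and by MEF2 and SRF. The mature miR-1 and miR-206 share a seed and favour differentiation of myoblasts. The miR-133 family has another seed and is known from studies of myoblast proliferation and of SRF. miR-206 is largely a skeletal muscle microRNA, whereas miR-1 and miR-133a are made in heart as well.

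The mature sequences are shown first, because what they have in common with other loci bears on how their reads could be counted. They were read from RefSeq (GRCm38.p6) for Mir206, Mir133b and Mir1a-1, from 5′ to 3′, with the seed in capitals. miR-1a-3p and the mature sequences of Mir1a-2, Mir133a-1 and Mir133a-2 were not used here.
miR-206-3p: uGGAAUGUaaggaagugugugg
miR-206-5p: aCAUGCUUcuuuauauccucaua
miR-1a-1-5p: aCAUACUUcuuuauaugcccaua
miR-133b-3p: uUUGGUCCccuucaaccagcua
miR-133b-5p: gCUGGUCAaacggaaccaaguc
The 5′ arms of Mir206 and Mir1a-1 were alike in 20 of 23 bases. Counted from 1 at the 5′ end, and with the base of miR-206-5p first, they differed at G5A, C17G and U19C, the first of which lies in the seed. Besides miR-1a-3p, whose seed could not be compared here, the seed GGAAUGU of miR-206-3p was that of miR-6349 and miR-6382 among the 1679 mature names in the RefSeq table used, and the genes Mir6349 and Mir6382 had 0 counts in either library. The seed of miR-133b-3p lies in a stretch that the hairpins of Mir133a-1 and Mir133a-2 hold too.

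The hairpins of the bicistron on chromosome 1 show where those arms lie, with the mature arms in capitals.
Mir206: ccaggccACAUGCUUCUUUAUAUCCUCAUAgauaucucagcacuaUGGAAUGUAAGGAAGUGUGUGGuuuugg
Mir133b: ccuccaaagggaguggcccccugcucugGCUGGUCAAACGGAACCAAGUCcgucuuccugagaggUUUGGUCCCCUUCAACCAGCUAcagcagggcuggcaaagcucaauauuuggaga
The longest run of bases common to the Mir206 hairpin and the hairpin of Mir1a-1 or Mir1a-2 was 13 bases. Mir206 and its partner Mir133b had at most 5 bases in a row in common.

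Mir206 lies on chromosome 1 from 20679010 to 20679082 (mm10, plus strand, ENSMUSG00000065559.1), and Mir133b from 20682769 to 20682887 on the same strand (ENSMUSG00000065480.1), with 3686 bases between them. Both overlap Gm28653, a long non-coding RNA gene that RefSeq names Lincmd1. Of the 73 bases of Mir206, 60 lie in an exon of 1 transcript of Gm28653. All 119 bases of Mir133b lie in an exon of Gm28653, and exons of its transcripts Gm28653-201 and Gm28653-202 overlap Mir133b. Mir1a-1 (chromosome 2, 180389048 to 180389124, ENSMUSG00000070144.1) and Mir133a-2 (180398379 to 180398482, ENSMUSG00000065460.1) are on the plus strand with 9254 bases between them. GENCODE vM21 gave that locus no host gene, while in RefSeq both lie in the non-coding RNA gene Mir1a-1hg.

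Mir1a-2 (chromosome 18, 10785481 to 10785552, minus strand, ENSMUSG00000106348.1) and Mir133a-1 (10782909 to 10782976, ENSMUSG00000065399.2) are the closest of the 3 couples, with 2504 bases between them. Both lie in an intron of the non-coding gene Mir133a-1hg and, on the opposite strand, in an intron of Mib1, which encodes a ubiquitin ligase of Notch signalling. All 72 bases of Mir1a-2 are also covered by Mir1b, which the annotation places on the plus strand there.

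Values are read counts on the gene's own strand and CPM, the counts scaled to 1000000 reads assigned to microRNA genes. A read covers a mature microRNA, so counts were not divided by gene length. Replicate 1 held 2743657 assigned reads and replicate 2 held 2211254. A further 4421485 and 4266018 reads mapped to several loci and are in no gene's count. At this depth a gene with 0 counts could hold up to 3, a level of 1.09 CPM for replicate 1 and 1.36 CPM for replicate 2. Intervals are 95% and, since PCR copies are not independent molecules, they and these limits cover counting error only.

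Markers of the tissue were as follows. The 6 members are muscle markers too, and their levels, given below, ran from 68099 CPM for Mir206 to 1.82 CPM for Mir133a-2. Of other muscle microRNA genes, Mir486 stood at 611 CPM ± 55.7, Mir499 at 277 CPM ± 85.7 and Mir208b at 84.3 CPM ± 0.314 (SD, n = 2). The cardiac Mir208a had 7 counts in replicate 1 and 0 in replicate 2. Mir126a of endothelium was at 80432 to 98087 CPM. The summed level was 34920 to 36704 CPM for the smooth muscle genes Mir143 and Mir145a, 648 to 678 CPM for 3 leukocyte genes, 384 to 571 CPM for the red cell genes Mir451a and Mir144, and 108 to 132 CPM for the liver gene Mir122. The 6 neuronal genes of miR-124 and miR-9, copies of 2 microRNAs each at 3 loci, had 1 count in all. Since reads that map to several loci are in no count, this does not show that these microRNAs were absent.

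Mir206 stood far above the other members. It had 187358 counts in replicate 1 and 150165 in replicate 2, or 68288 CPM (Wilson interval 67990 to 68587) and 67909 CPM (67579 to 68242), with a mean of 68099 CPM ± 267 (SD, n = 2). The coefficient of variation over the libraries was 0.393% on this scale, but the spread depended on the scaling. With library sizes scaled by TMM, as in the test below, the SD was 1825 CPM. With DESeq2 size factors it was 2237 CPM. Mir206 was the gene at rank 4 in each library. Mir127, next above it at 75510 CPM ± 2663, and Mir411, next below it at 55294 CPM ± 6202, did not overlap with it in either library. In bulk tissue, fewer cells of a type and less RNA per cell cannot be told apart.

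Mir1a-2, of the locus on chromosome 18, was the highest of the 5 others. It had 543 counts (198 CPM) in replicate 1 and 651 counts (294 CPM) in replicate 2, a mean of 246 CPM ± 68.2 at rank 134. Replicate 2 was the higher one, and the Wilson intervals, 182 to 215 CPM and 273 to 318 CPM, did not overlap. Mirlet7a-1, next above at 248 CPM ± 19.1, and Mir615, next below at 236 CPM ± 33.5, lay within its range.

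The other copy of the gene, Mir1a-1 on chromosome 2, had 41 counts (14.9 CPM) in replicate 1 against 21 (9.50 CPM) in replicate 2, with a mean of 12.2 CPM ± 3.85 at rank 259. Here replicate 1 was the higher one, with overlapping intervals (11.0 to 20.3 and 6.21 to 14.5 CPM). The next genes in order, Gm49347 at 12.4 CPM ± 4.17 above and Mir92-2 at 11.8 CPM ± 1.22 below, overlapped with it.

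The 3 miR-133 genes all had low counts, which leave out reads that map to several loci. Mir133b had 57 counts (20.8 CPM) in replicate 1 against 70 (31.7 CPM) in replicate 2, with a mean of 26.2 CPM ± 7.69 at rank 228. Mir133a-1 had 50 counts (18.2 CPM) and 35 (15.8 CPM), a mean of 17.0 CPM ± 1.69 at rank 246. Mir133a-2 had 5 counts (1.82 CPM) and 4 (1.81 CPM), a mean of 1.82 CPM ± 0.00952 at rank 358. The Wilson intervals of Mir133a-2, 0.778 to 4.27 and 0.703 to 4.65 CPM, reach from below to above the limit for 0 counts, so the close match of its libraries rests on single reads.

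The order of the members was thus Mir206, Mir1a-2, Mir133b, Mir133a-1, Mir1a-1 and Mir133a-2. Mir206, Mir1a-2 and Mir133a-2 were separated from their neighbours in that order in both libraries. Mir133b did not overlap with Mir133a-1 in CPM (20.8 and 31.7 against 18.2 and 15.8), but their Wilson intervals overlapped in replicate 1 (16.0 to 26.9 against 13.8 to 24.0 CPM). Mir133a-1 and Mir1a-1 did not overlap in CPM either (18.2 and 15.8 against 14.9 and 9.50), and their intervals overlapped in both libraries. In replicate 2 the intervals of Mir133b (25.1 to 40.0 CPM) and Mir133a-1 (11.4 to 22 CPM) were separate, so Mir133b stood above Mir133a-1 beyond counting error in 1 of the 2 libraries. The order of Mir133a-1 and Mir1a-1 was within counting error in both. With 2 samples of 1 group there is no pattern across conditions by which other genes could be called alike.

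**Figure D1:**
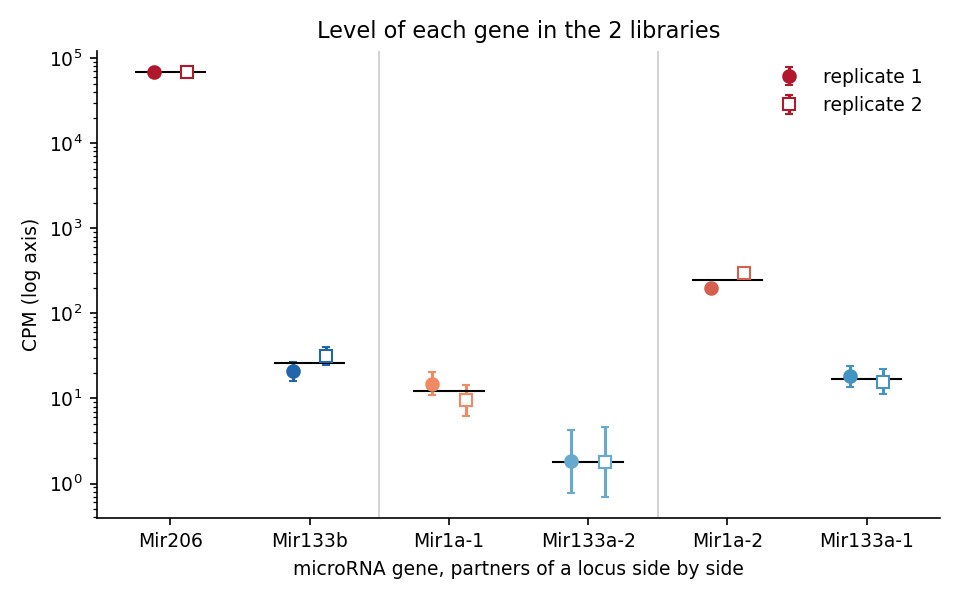
CPM (log axis) of the 6 genes, partners of a locus side by side, with filled circles for replicate 1, open squares for replicate 2, bars for 95% Wilson intervals and a black line for the mean. Mir206 stands at 68099 CPM, the 5 others between 1.82 and 246 CPM, and in each locus the miR-133 gene is the lower one.

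All 6 genes together held 188054 counts in replicate 1 and 150946 in replicate 2, which is 6.85% and 6.83% of assigned reads, a mean of 6.84% ± 0.0197 (SD, n = 2). Mir206 alone made up 99.6% of the former (Wilson interval 99.6 to 99.7) and 99.5% of the latter (99.4 to 99.5). The 5 others summed to 696 and 781 counts, 254 and 353 CPM, and Mir1a-2 held 78.0% and 83.4% of those. The miR-133 genes summed to 112 and 109 counts (40.8 and 49.3 CPM), so they held 16.1% and 14.0% of the counts of the 5. Within that family, Mir133b held 50.9% (41.8 to 60.0) in replicate 1 and 64.2% (54.9 to 72.6) in replicate 2.

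In every locus and both libraries the miR-1 or miR-206 gene was counted more often than its miR-133 partner. Reads that map to several loci are in none of these counts, and how many of them belong to either partner was not tested. Mir206 had 3287 times the counts of Mir133b in replicate 1 (Clopper-Pearson interval carried over from the share, 2537 to 4340) and 2145 times in replicate 2 (1698 to 2752), a mean of 2716 ± 807. Mir1a-2 had 10.9 times the counts of Mir133a-1 in replicate 1 (8.12 to 14.8) and 18.6 times in replicate 2 (13.2 to 26.9). Mir1a-1 had 8.20 times the counts of Mir133a-2 in replicate 1 (3.24 to 26.6) and 5.25 times in replicate 2 (1.77 to 21). The intervals of the libraries overlapped in each locus, and the ratios of the loci on chromosomes 2 and 18 overlapped with each other in replicate 1 and in replicate 2, while that of the locus on chromosome 1 lay above both.

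The copies of a family were not counted evenly. The miR-1a genes have a stretch of 28 bases in common, and the miR-133a genes have stretches of 24 and 31 bases. A read lying wholly in such a stretch matches both copies, and reads that map to several loci are in no count. The shares and ratios below are thus those of counted reads, and the balance between the copies in the muscle was not tested. Of the counts of both miR-1a genes, Mir1a-2 held 93.0% (90.6 to 94.8 by Wilson's method) and 96.9% (95.3 to 97.9) of those of replicates 1 and 2. Mir1a-2 was 13.2 times Mir1a-1 in replicate 1 (9.63 to 18.7) and 31.0 times in replicate 2 (20.1 to 50.4), a change of 2.34-fold between the libraries beyond counting error. Of the counts of both miR-133a genes, Mir133a-1 held 90.9% (80.4 to 96.1) and 89.7% (76.4 to 95.9). The locus on chromosome 18 thus had 593 of the 639 counts of the miR-1a and miR-133a genes in replicate 1, and 686 of 711 in replicate 2. Mir206 was 345 times Mir1a-2 in replicate 1 and 231 times in replicate 2.

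To place these ratios, every couple of neighbouring microRNA genes on 1 strand within 10 kb of each other was taken where the higher gene reached 10 CPM in both libraries, 127 couples in all. In 23 of them the lower gene had 0 counts and was set to the limit of 3 counts per library, so their ratios are lower bounds. With these at their bounds, the ratio of mean CPM had a median of 14.4 and quartiles of 3.54 and 95.5, and the median could be as high as 21.6 if all of the 23 were larger. Over the 104 couples with both genes counted the median was 9.76. For Mir206 and Mir133b the ratio was 2598, at rank 4 of these 104. Over all 127 it was at rank 5 with 96.1% smaller at the bounds, and at rank 27 with 78.7% smaller if every couple known by a bound were larger. Above it were Mir382 with Mir544, Mir434 with Mir432, Mir431 with Mir3070b and Mir20a with Mir19b-1, whose lower genes had 4, 0, 12 and 1 counts in both libraries together, against 127 for Mir133b. The couple next below was Mir92-1 with Mir19b-1. Among the 89 couples whose lower gene had at least 10 counts, Mir206 with Mir133b was at rank 2.

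Mir1a-2 with Mir133a-1 had a ratio of 14.5, at rank 63 to 66 of the 127, depending on the bounds. It was at rank 43 of the 104 couples with both genes counted, and at rank 28 of the 89 with at least 10 counts in the lower gene, whose median was 7.27. Mir224 with Mir452 was the next couple above at 19.5. Mir449a was at least 14.4-fold higher than Mir449b, which had 0 counts, and cannot be placed above or below. Mir1a-1 with Mir133a-2 was not among the couples, because Mir1a-1 was under 10 CPM in replicate 2. The gap between the genes, at 2504 to 9254 bases, was wider in all 3 bicistrons than the median of 426 bases over the 127 couples. The 18 couples at least 2504 bases apart with both genes counted had a median ratio of 14.2.

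**Figure D2:**
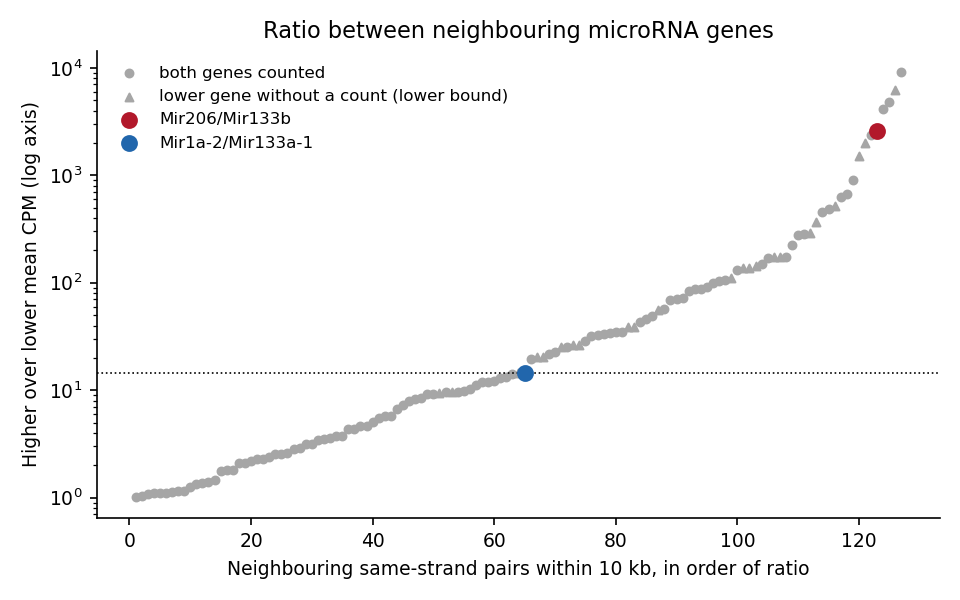
Ratio of higher to lower mean CPM (log axis) for the 127 couples of neighbouring same-strand microRNA genes within 10 kb, in order of size; triangles are lower bounds for couples whose lower gene had 0 counts, and the dotted line is the median of 14.4 with those at their bounds. Mir206 with Mir133b (red) stands at 2598, and Mir1a-2 with Mir133a-1 (blue) at 14.5.

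The sequences set 5 of the 6 members apart from Mir206. The longest stretch that Mir206 had in common with any other microRNA gene of the table was 13 bases, and 0 of its 54 windows of 20 bases occurred elsewhere. In Mir133b, bases 1 to 21 of the 22 bases of miR-133b-3p occurred in Mir133a-1 and Mir133a-2, whereas its 5′ arm had at most 11 bases in a row in another gene. Only 2 of the 100 windows of 20 bases in Mir133b were shared. A read of miR-133b-3p that lacks the last base therefore matches 3 microRNA genes, and a full one matches 1.

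Mir1a-1 and Mir1a-2 had a stretch of 28 bases in common, from base 45 to 72 of the former and from base 43 to 70 of the latter, in the 3′ part of the hairpin. The 5′ arm miR-1a-1-5p had at most 14 bases in a row in another gene. Mir133a-1 and Mir133a-2 had a pair of common stretches, of 24 and 31 bases, one in each part of the hairpin. Shared windows of 20 bases were 15.5% of all windows in Mir1a-1, 17.0% in Mir1a-2, 20.0% in Mir133a-2 and 34.7% in Mir133a-1.

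Of all 2202 genes, 49.4% shared a stretch of at least 20 bases with another locus, and of the 258 genes at 10 CPM in both libraries, 24.0% did. Among the latter the median was 152 CPM with such a stretch and 354 CPM without, given as a description. The reads that mapped to several loci were 6353 times the counts of the 5 members other than Mir206 in replicate 1 and 5462 times in replicate 2. The tables do not say from which genes those reads came, so how many of them belong to miR-1a or miR-133 was not tested, and the levels and ratios of the 5 genes do not show how much of these microRNAs the muscle holds.

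**Figure D3:**
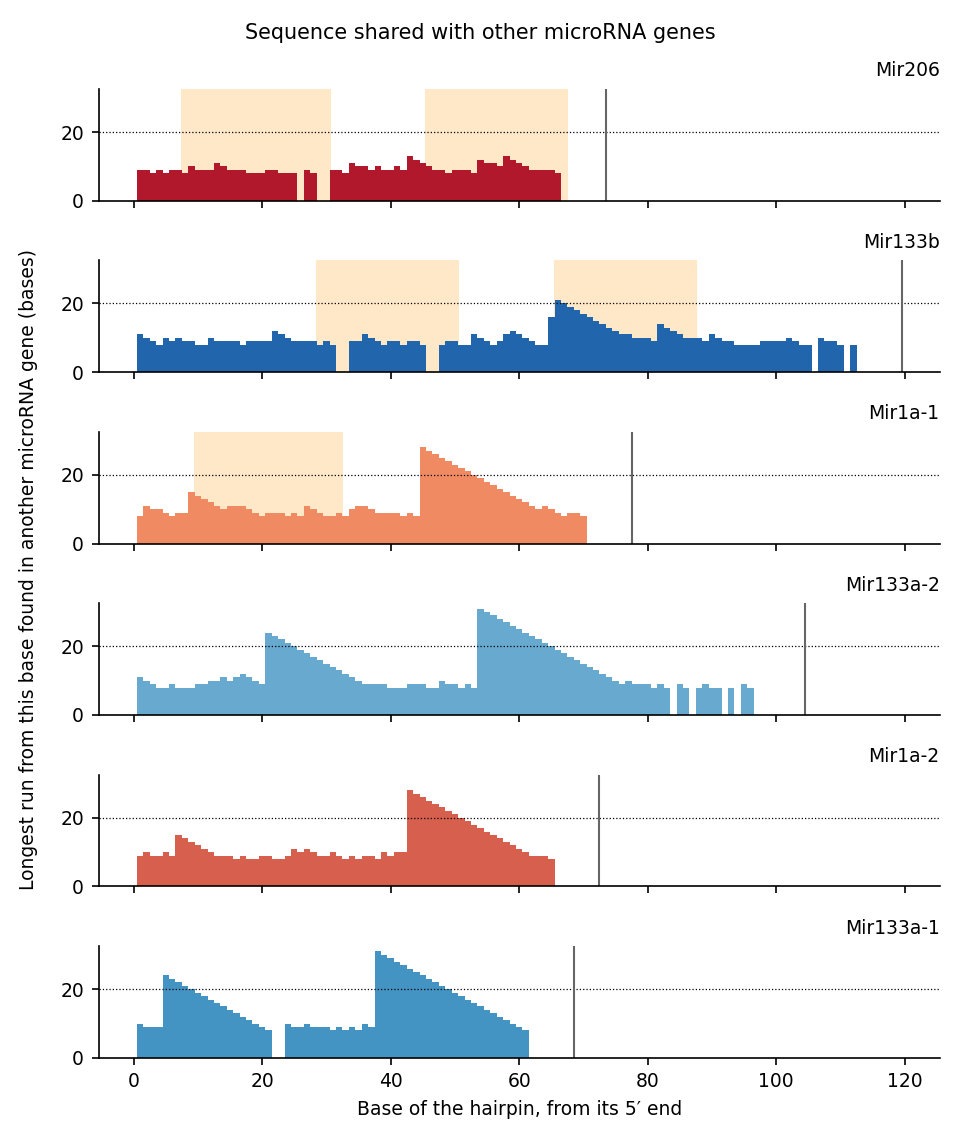
For each hairpin, from its 5′ end, the length of the longest run starting at a base that was found in another microRNA gene (bases; runs under 8 are drawn as 0); the dotted line marks 20 bases, the grey line the end of the hairpin and the shaded spans the mature arms read from RefSeq. Mir206 stays at 13 bases or fewer, Mir133b reaches 21 at 1 place, the miR-1a genes reach 28 and the miR-133a genes 24 and 31.

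Strand mattered for 1 member. Mir206, Mir133b, Mir1a-1, Mir133a-1 and Mir133a-2 had 0 counts on the opposite strand in both libraries, and the same counts with either strand taken as on their own. Mir1a-2 had 543 and 651 counts on its own strand, 3 and 1 on the opposite one, and 0 with either strand taken, since a read there lies under Mir1b too. The 3 and 1 reads are the counts of Mir1b itself, at or under the limit for 0 counts.

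To set the libraries side by side, each gene's counts were put to an exact binomial test (two-sided, on scaled library sizes), with Benjamini-Hochberg adjustment over the 258 genes at 10 CPM in both. This compares 2 libraries, not conditions. Of those genes 131, or 50.8%, passed the threshold of 0.05, 19% higher and 31.8% lower in replicate 2, and 4 of the 6 members could be tested. Of these 4, 2 passed, a share close to that of all genes. Mir1a-2 was higher in replicate 2, with a log2 ratio of 0.52 and an adjusted p of 1.42e-09 in this exact test. Mir206 was lower, with a log2 ratio of −0.05 and an adjusted p of 5.88e-27 in the same exact test, a small difference on a very large count.

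The other tested members did not pass. Mir133b, on 57 and 70 counts, stood at a log2 ratio of 0.54 with an adjusted p of 0.0615 (exact test), and Mir133a-1 at −0.24 with an adjusted p of 0.566. The median log2 ratio of the 4 was 0.23, against −0.04 over all tested genes. With library sizes from total counts, 67 genes were higher and 66 lower, Mir206 no longer passed (log2 ratio −0.01, adjusted p = 0.180, exact test) and Mir133b did (0.58, adjusted p = 0.0398). With genes of any count admitted, Mir1a-1 stood at −0.65 (adjusted p = 0.257, exact test) and Mir133a-2 at −0.04 (adjusted p = 1).

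No member passed with a spread between the libraries estimated over all genes. That spread came from the same 2 libraries that were then compared, 1 on each side, so few calls follow from the construction and the test says nothing of whether the members are stable. The biological coefficient of variation common to all genes was 12.8%, and edgeR's exact test with it called 1.16% of the 258 genes and 0 members, and an unadjusted p under 0.05 was reached by 5.81% of the genes and again 0 members. Mir1a-2 had an adjusted p of 0.832 and Mir206 one of 0.995 in edgeR's exact test. At least 2-fold differences in the binomial test were found for 1.16% of genes and for 0 members.

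**Figure D4:**
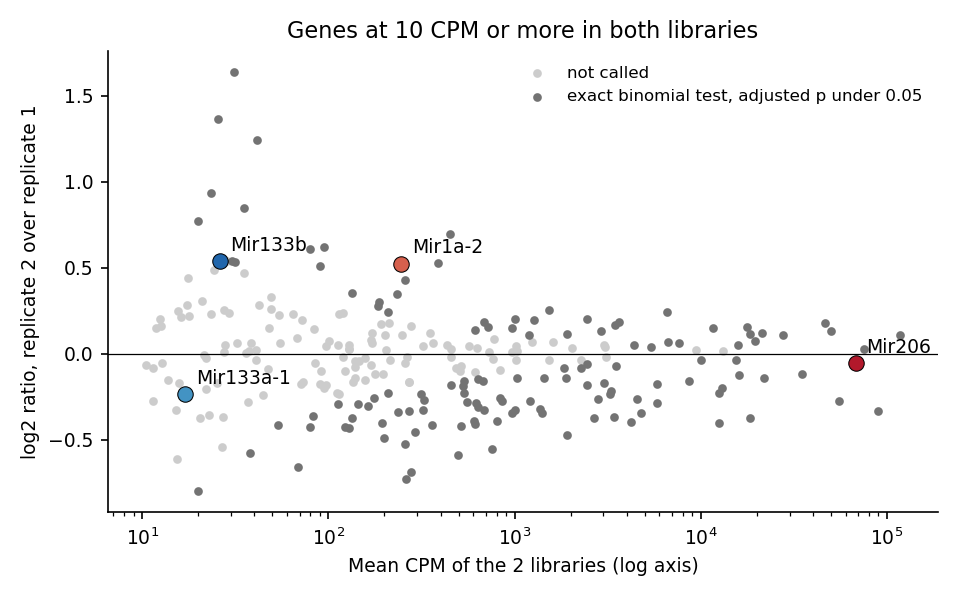
log2 ratio of replicate 2 over replicate 1 against mean CPM (log axis) for the 258 genes at 10 CPM in both libraries; dark grey points are genes that passed the exact binomial test, and the members are in colour. Mir1a-2 (0.52) and Mir133b (0.54) lie above 0, Mir206 (−0.05) and Mir133a-1 (−0.24) below it.

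The other microRNAs enriched in striated muscle were Mir1b, Mir133c, Mir208a, Mir208b, Mir499, Mir486 and Mir3107. Of these 7 genes, 6 had a count, and they had a summed level of 1009 and 965 CPM in replicates 1 and 2, with a mean of 987 CPM ± 31.2. That is above the summed 254 and 353 CPM of the 5 members without Mir206 and below Mir206 itself. All 5 of these members share a stretch of at least 20 bases with another locus, and reads that map to several loci are in no count. The comparison is thus one of counts and does not rank these microRNAs in the muscle. Mir1b, the other gene named for miR-1, had 3 and 1 counts, and Mir133c, the other one named for miR-133, had 0 in both libraries. Of the 4 that were tested, 1 was higher and 1 lower in replicate 2. Mir486, in the ankyrin gene Ank1, stood at a log2 ratio of 0.14 with an adjusted p of 0.0178 (exact test), and Mir499, in the myosin gene Myh7b, at −0.69 with an adjusted p of 4.01e-17. Mir208b, in the slow myosin gene Myh7, stood at −0.05 and Mir3107, which overlaps Mir486, at 0.16, and neither passed. By edgeR's exact test none of the 4 passed, with an adjusted p of 0.488 for Mir499, at an unadjusted p of 0.0131, and of 0.995 for the others.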

How the data were processed

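Small RNA (size range under 30 nt, per the labels) was sequenced from 2 gastrocnemius samples. The deposited tables hold raw counts of reads for each microRNA gene, made on mm10 with the M21 annotation, per the notes deposited with them. The aligner, counter and trimming are not given in the sources used here. The 4 lines that name no gene (72.7% of reads in replicate 1, 73.0% in replicate 2) stayed out of library sizes and tests. Counts on the gene's own strand were used, over 2202 genes, all matched in GENCODE vM21. CPM, ratios and intervals were computed with Python 3.11.15 and scipy 1.17.1. Library sizes for the test were scaled by TMM (edgeR 4.0.16, R 4.3.3), and log2 ratios are of CPM + 1. Shared stretches were searched on both strands of all other, non-overlapping microRNA genes, not in the whole genome. The binomial script was tested on simulated data. The members and lists were chosen with earlier results of these data known. Genes named are the members, the 7 other myomiRs, the genes next to each member in level, and the couples next to each locus in ratio; the top 3 couples were named after their values were seen. Alternatives were either strand, other scalings (DESeq2 1.42.0 size factors among them), other minimums (any count, 100 CPM), edgeR's exact test, other distances and each library alone.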

Additional observations from a re-analysis of the deposited data

How the results depend on the processing

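The order of the members and the sign of every tested log2 ratio held under the alternatives run, except that counting either strand leaves Mir1a-2 at 0 counts, so its ratio to Mir133a-1 became 0 (14.7 otherwise), because every read there lies under a gene on each strand. The summed level of the 6 genes was 68402 CPM ± 197 (SD, n = 2). With TMM library sizes it was 68413 ± 1762, and with DESeq2 size factors 68023 ± 2176, so its spread between the libraries depended on the scaling. It was 88849 with either strand counted and 77494 without the most abundant gene in the total. With 1 library left out it was 68263 to 68541, and it was 23879 when scaled to all mapped reads. On that last scale, 2 members reached 10 in both libraries instead of 4. With 1 library left out the ratio of Mir206 to Mir133b was 2145 to 3287, that of Mir1a-1 to Mir133a-2 was 5.25 to 8.20 and that of Mir1a-2 to Mir133a-1 was 10.9 to 18.6. Instead of 2 members among 131 of 258 genes called, 1 differed between the libraries with either strand counted, where 114 of 244 genes were called. Mir1a-2 was not tested there, since it had 0 counts. Mir1a-1 was tested in that setting and not called (log2 ratio −0.66, adjusted p = 0.133, exact binomial test). By edgeR's exact test 0 members differed, and 3 genes were called instead of 131, with a spread taken from the libraries compared. Among couples within 5 and 50 kb, Mir206 with Mir133b was at rank 5 of 119 and rank 8 of 145, with couples whose lower gene had 0 counts at their bounds. No paired analysis was possible because there is 1 group. Depth limits Mir133a-2 (5 and 4 counts) and Mir1a-1 (41 and 21) most.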

Other observations

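Among the 127 couples of neighbouring microRNA genes, the lower gene shared a stretch of at least 20 bases with another locus in 43. Where both genes were counted, in 32 of these, the median ratio was 44.5. With the 11 others at their lower bounds it was 38.6, and it could be as high as 98.9. At least 14 of the 43 (32.6%) were at 100-fold or more, and a further 7 had a bound under 100. In the other 84 couples the median ratio was 7.01 over the 72 with both genes counted and 9.32 to 9.48 over all, depending on the bounds. At least 17 of the 84 (20.2%) were at 100-fold or more, and a further 4 had a bound under 100. Both bicistrons that entered this comparison, Mir206 with Mir133b and Mir1a-2 with Mir133a-1, have a lower gene with a shared stretch. These are descriptions of 2 libraries, and the difference was not tested.

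The hairpins of the 3 miR-1 and miR-206 genes held 42.5% (Mir206), 39.0% (Mir1a-1) and 33.3% (Mir1a-2) G and C, all below the median of 50.8% over the 2202 genes. Of the miR-133 genes, Mir133b was above that median at 56.3%, while Mir133a-2 (49.0%) and Mir133a-1 (47.1%) were below it too.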
